A study of Mus musculus with 12 samples.

Results

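Evx1, Mesp1, Eomes, Mixl1, Gsc, Otx2 and Pou3f1, 7 transcription factor genes of the epiblast and primitive streak, were followed by bulk RNA-seq in mouse gastruloids that had been embedded in hydrogels. They were chosen by name, with earlier results of these data known, and were matched by symbol in the deposited FPKM table. All 7 were found among the 55141 Ensembl genes of the count table. FPKM scale fragments by transcript length and by library, so that genes can be compared, and CPM scale counts by library totals adjusted with TMM factors, not by length. Evx1 was called as higher after embedding at 72 h than at 96 h in the main fit across both gels. The same call was made for 2.36% of all genes, and for Evx1 in neither gel alone in the main fits. Mesp1 had nearly the same size across both gels, just short of the threshold. Pou3f1 had a smaller difference the other way that was not called. Its adjusted p alone passed, as that of 31.1% of all genes did. In the main fits none of the 7 genes was called between the gel concentrations. The call of Evx1 depended on single libraries, and Mesp1 was also called when replicate numbers were fitted as a block.

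Gastruloids are aggregates of mouse embryonic stem cells, which lengthen along an axis and form derivatives of the germ layers. In all groups 300 cells of a 129/SVEV line were seeded per well and received, 48 h later, a 24 h pulse of 3 μM CHIR99021, a Wnt agonist. Gastruloids were embedded in a dextran-PEG hydrogel at 72 h or at 96 h after seeding, of which a 1.0 mM and a more concentrated 1.5 mM formulation were used, and were collected at 120 h, after release with dextranase. Each of the 4 groups held 3 libraries, which the study describes as biological replicates, and each library pooled about 30 gastruloids. Gastruloids embedded at 72 h therefore spent longer in the gel than those embedded at 96 h, so that the age at embedding and the time in the gel cannot be told apart. Free-floating gastruloids were not analysed here.

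In the mouse embryo the epiblast is the pluripotent layer from which the germ layers form, and cells leave it through the primitive streak, where Wnt, Nodal and BMP signals act. Eomes, Mixl1, Gsc, Mesp1 and Evx1 are best known from the streak and the mesoderm and endoderm that emerge from it. Otx2 and Pou3f1 (also called Oct6) are expressed in the epiblast, and later mainly in neural tissue. In gastruloids the streak stage is passed soon after the Wnt pulse.

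Total counts per library ran from 23011791 to 27609422, with a median of 25274302, and 3 counts corresponded to 0.110 to 0.134 CPM. The 9 marker genes listed for gastruloids at this stage (T, Sox2, Cdx2, Tbx6, Meox1, Foxc1, Pax6, Sox17 and Kdr) all had at least 20 counts in every library, with summed levels between 719 and 975 CPM. The transcript CT010467.1 took 0.207% to 6.12% of the counts of a library.

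Otx2, a homeobox gene required for the anterior epiblast and forebrain, had the highest level per transcript length. Its mean over the 12 libraries was 10.4 ± 2.10 FPKM (SD, n = 12), and its lowest library, at 6.93 FPKM, lay above the highest library of any other of the 7 genes. Eomes, a T-box factor needed for mesendoderm formation, followed at 1.87 ± 0.556 FPKM. Mesp1, the basic helix-loop-helix factor of nascent and cardiac mesoderm, was at 1.37 ± 0.829 FPKM. Gsc, a homeobox gene of the anterior streak and organizer, was at 0.871 ± 0.323 FPKM and Pou3f1, a POU-domain factor, at 0.754 ± 0.194 FPKM. Evx1, a homeobox gene of the posterior streak, was at 0.565 ± 0.312 FPKM. Mixl1, a homeobox gene induced by Nodal signals in the streak, was lowest at 0.176 ± 0.0807 FPKM. From Eomes down to Mixl1 the range of each gene over the 12 libraries overlapped that of its neighbour in this order, with the higher-placed gene of a pair ahead in 8 of 12 libraries, and Evx1 ahead of Mixl1 in 11 of 12. Otx2 alone stood apart from its neighbour.

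**Figure D1:**
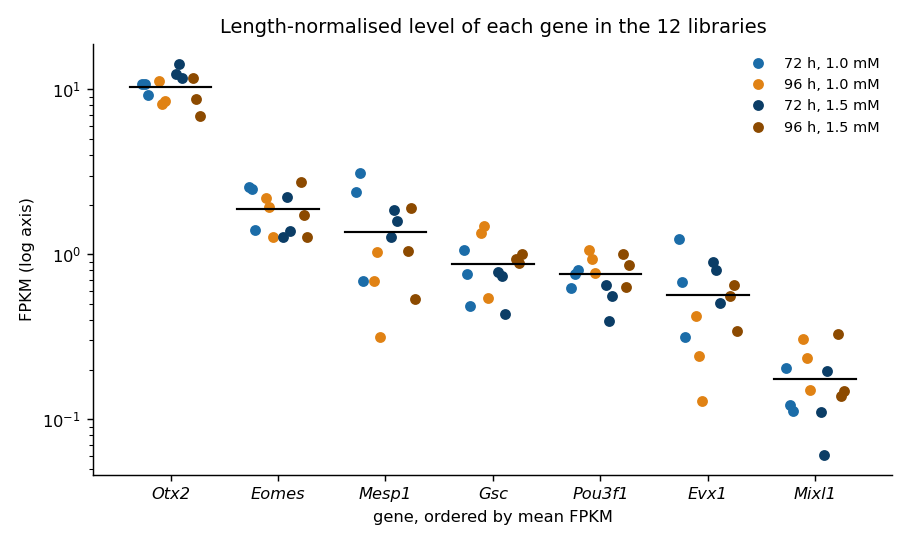
Level of each gene per transcript length (FPKM, log axis) in the 12 libraries, ordered by the mean (black line) and coloured by group. Otx2 lies between 6.93 and 14.3 FPKM, above all other points, and Mixl1 lies between 0.0605 and 0.328 FPKM.

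The order was not the same in every group. In gastruloids embedded at 96 h in 1.0 mM gels Mesp1 was the fifth gene at 0.681 ± 0.362 FPKM (SD, n = 3), below Gsc at 1.13 ± 0.511 and Pou3f1 at 0.924 ± 0.151. In those embedded at 72 h in the same gel Mesp1 was at 2.06 ± 1.24 FPKM, next to Eomes at 2.15 ± 0.656. All 4 groups had Otx2 highest, Eomes next and Mixl1 lowest by their means. Otx2 and Eomes did not overlap within any group.

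Differences between groups are given as log2 ratios, the fitted log2 fold changes of edgeR's quasi-likelihood test on the counts, with p-values adjusted by the Benjamini-Hochberg method over all genes tested. A gene was called at an adjusted p below 0.05 and a log2 ratio above 1 or below -1. Positive values mean higher after embedding at 72 h, or higher at 1.5 mM. All 7 genes passed the filter on low counts in every comparison, and comparisons of time and of gel share libraries. In bulk tissue, fewer cells that express a gene and less RNA per cell cannot be told apart.

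Evx1 had a higher mean after the early embedding at 1.0 mM, with an adjusted p that missed the threshold in the fit without replicate numbers. The 3 libraries embedded at 72 h had 4.58, 2.70 and 1.17 CPM, and those embedded at 96 h had 1.38, 0.923 and 0.515 CPM. The lowest library of the first group lay under the highest of the second, so the groups overlapped. The means were 2.81 ± 1.71 and 0.939 ± 0.433 CPM, and the log2 ratio was 1.59 (SE 0.47, 95% interval 0.55 to 2.62), with an adjusted p of 0.0617 in edgeR. At 1.5 mM the libraries embedded at 72 h had 3.60, 3.03 and 1.99 CPM and those embedded at 96 h had 2.21, 2.73 and 1.01 CPM. The groups overlapped again, and the log2 ratio was 0.52 (SE 0.35, 95% interval -0.27 to 1.32), with an adjusted p of 0.326 in edgeR.

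Mesp1 had a similar set of values. At 1.0 mM the libraries embedded at 72 h had 4.11, 5.51 and 1.25 CPM, and those embedded at 96 h had 1.15, 1.85 and 0.588 CPM. Replicate 3 of the 72 h group lay among the 96 h libraries, as it did for Evx1. The log2 ratio was 1.61 (SE 0.50, 95% interval 0.51 to 2.71), with an adjusted p of 0.0722 in edgeR. At 1.5 mM Mesp1 was at 2.35, 3.25 and 2.64 CPM after embedding at 72 h and at 1.72, 3.37 and 0.896 CPM after embedding at 96 h. The latter spanned the whole of the former, and the log2 ratio was 0.46 (SE 0.40, 95% interval -0.43 to 1.35, edgeR adjusted p = 0.445).

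**Figure D2:**
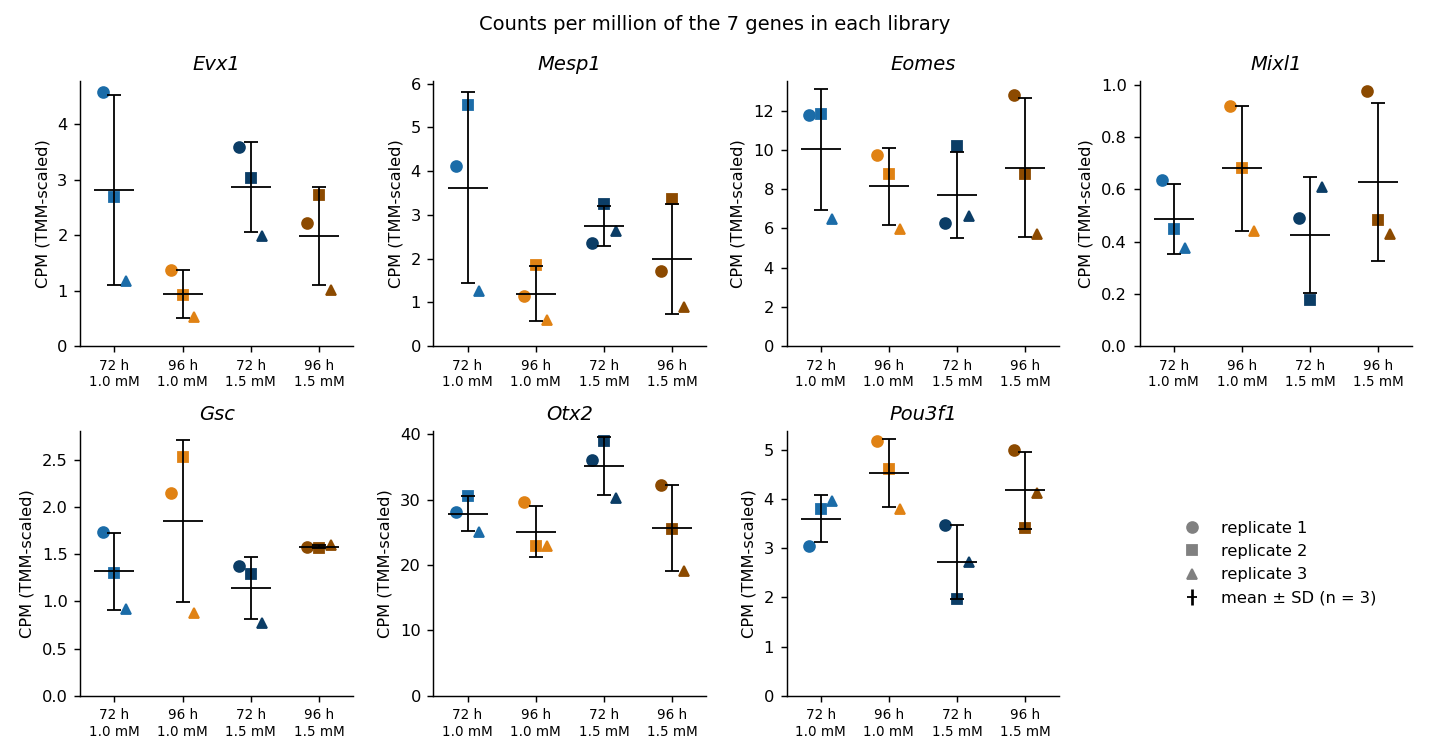
TMM-scaled CPM of the 7 genes (each panel with its own linear axis from 0) in the 4 groups, with a point for each library, its shape giving the replicate number, and black bars for the mean ± SD (n = 3). The 72 h groups of Evx1 and Mesp1 spread from 1.17 to 4.58 and from 1.25 to 5.51 CPM, and overlap the 96 h groups of the same gel.

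By edgeR 0 of the 7 genes were called for embedding time at 1.0 mM, where 4.3% of all genes tested were called, and 2 (Evx1 and Mesp1) had an unadjusted p below 0.05, as 22.9% of all genes did. With the replicate number as a block, edgeR called 4.8% of all genes, among them both Evx1 (adjusted p = 0.00267) and Mesp1 (adjusted p = 0.00176). DESeq2, without the block, called both, with adjusted p-values of 0.00919 for Evx1 and 0.00710 for Mesp1, where it called 3.62% of all genes. Without replicate 3 of the 72 h group, edgeR called both as well, at log2 ratios of 1.96 for Evx1 (adjusted p = 0.0127) and 2.02 for Mesp1 (adjusted p = 0.00936). With any of the other 5 libraries left out it called neither. Over all 6 such fits the log2 ratio ran from 1.05 to 1.97 for Evx1, with edgeR adjusted p up to 0.212, and from 1.17 to 2.07 for Mesp1, with edgeR adjusted p up to 0.231. At 1.5 mM edgeR called 0 of the 7, against 3.18% of all genes, and DESeq2 also called 0, against 2.81%. There, 2 of the 7 (Otx2 and Pou3f1) had an unadjusted p below 0.05, and 35.1% of all genes did.

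Across both gels, with all 12 libraries in a fit that kept the gels apart, 1 of the 7 genes was called for embedding time, where 4.66% of all genes were called in either direction and 2.36% as higher. DESeq2 also called Evx1 alone (adjusted p = 0.0106), against 4.55% of all genes, and 4 of the 7 had an unadjusted p below 0.05 in edgeR, as 42.5% of all genes did. The gene called by edgeR was Evx1, with a log2 ratio of 1.02 (a 2.02-fold difference, SE 0.35, 95% interval 0.28 to 1.75, edgeR adjusted p = 0.0371). Leaving out any of 7 of the 12 libraries ended this call, with adjusted p-values from 0.0528 to 0.0864. These were replicates 1 and 2 of 72 h in 1.0 mM, all 3 replicates of 96 h in 1.0 mM, replicate 1 of 72 h in 1.5 mM and replicate 3 of 96 h in 1.5 mM. Mesp1 had the same log2 ratio of 1.02 (SE 0.38, edgeR adjusted p = 0.0550) and was not called, but it passed without replicate 3 of 72 h in 1.0 mM (1.17, adjusted p = 0.0265) or without replicate 2 of 96 h in 1.5 mM (1.37, adjusted p = 0.0119). With the replicate number as a block, edgeR called both genes, where it called 4.87% of all genes. Its adjusted p was 0.00237 for Evx1 (1.01) and 0.00397 for Mesp1 (1.08). An exact permutation test over libraries within gels, two-sided and with a smallest possible p of 0.005, gave p = 0.05 for Evx1 and p = 0.065 for Mesp1.

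Evx1 lies on mm10 at chr6:52313498-52318378 on the plus strand (ENSMUSG00000005503), and its first exon overlaps the antisense gene Evx1os (chr6:52308389-52314832). The 2 gene bodies share 1335 bases, of which 73 are exonic in both. The setting for strand in the deposited counts is not stated, so reads of the 2 genes in the shared stretch may not be told apart. The 250 bases before the Evx1 start are shown because an exon of Evx1os reaches into them in GENCODE M21 (RefSeq start, GRCm38.p6, chr6:52313248-52313497, plus strand, no capitals).

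Evx1 upstream: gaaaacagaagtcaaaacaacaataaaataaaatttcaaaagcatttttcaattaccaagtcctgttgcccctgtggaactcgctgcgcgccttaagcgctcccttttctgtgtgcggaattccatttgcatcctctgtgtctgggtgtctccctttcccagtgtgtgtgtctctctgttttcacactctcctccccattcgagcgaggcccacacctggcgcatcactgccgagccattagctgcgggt

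Evx1os itself had 46, 34 and 18 counts in the libraries embedded at 72 h in the 1.0 mM gel and 5, 9 and 10 counts in those embedded at 96 h. All 3 early libraries lay above the late ones, and 28.4% of all genes tested had no overlap between these groups. The gene was called by edgeR at a log2 ratio of 2.14 (SE 0.44, adjusted p = 0.0112), as 4.3% of all genes were. At 1.5 mM it had 32, 13 and 19 counts after embedding at 72 h and 17, 11 and 6 after 96 h, with a log2 ratio of 1.06 (SE 0.46, edgeR adjusted p = 0.135). Across both gels it was called at 1.59 (SE 0.35, edgeR adjusted p = 0.00347). Evx1 and its antisense neighbour thus had positive values for embedding time in each gel, and how much of this came from shared reads was not tested. Per the study's methods, the FPKM were computed with a strand-specific setting. In 1.0 mM gels their means after 72 h and 96 h were 0.744 and 0.264 for Evx1, and 0.328 and 0.0651 for Evx1os. At 1.5 mM they were 0.737 and 0.517 for Evx1, and 0.216 and 0.0952 for Evx1os. Genes that overlap Eomes (Gm33460), Otx2 (Otx2os1 and Gm49154) and Pou3f1 (Gm2164) had at most 6 counts in a library and were not tested.

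**Figure D3:**
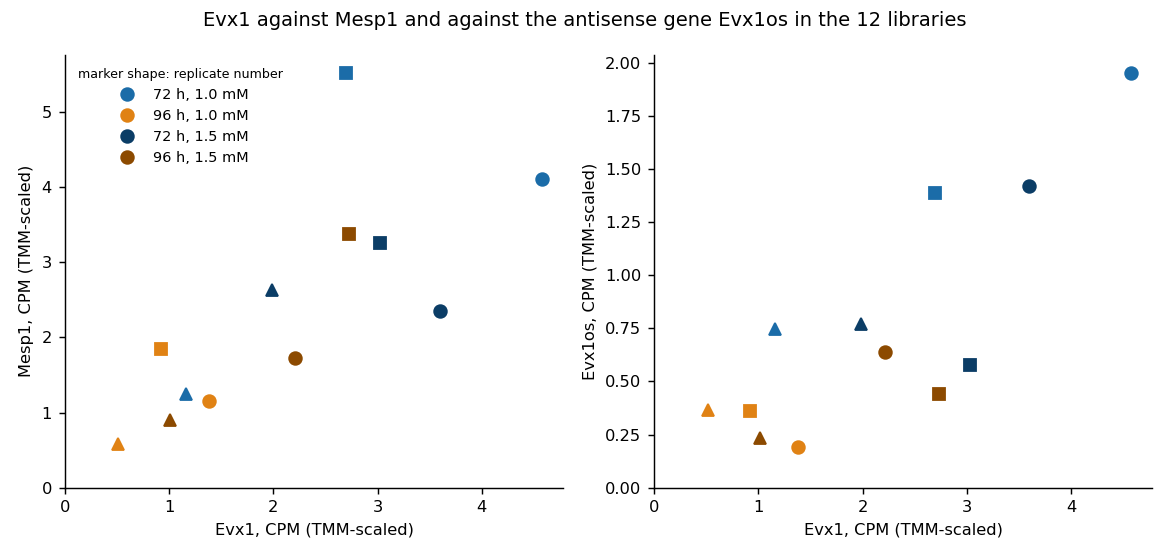
Evx1 (CPM, horizontal axis) against Mesp1 (left) and the antisense gene Evx1os (right) in the 12 libraries, with colour for the group and shape for the replicate number. Libraries with low Evx1, such as the 0.515 CPM of 96 h in 1.0 mM replicate 3, also have low Mesp1 (0.588 CPM).

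Evx1 and Mesp1 varied together over the libraries. Over the 12 libraries Pearson's r of their log2 CPM was 0.854 and Spearman's rho 0.776, and r was 0.772 for the deviations from the group means. These points share library totals and replicate pools, and the values are a description. Among the other pairs, r was 0.704 for Evx1 and Otx2, 0.604 for Eomes and Mesp1, and 0.73 for Mixl1 and Pou3f1. The most negative value was -0.485, between Mesp1 and Pou3f1. Replicate 3 was the lowest of its group in all 4 groups for Evx1 and Otx2, as it was for 2% of all genes, and in 3 of 4 groups for Mesp1, Eomes, Gsc and Mixl1.

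Among the 11344 genes that averaged 100 counts or more, those most like Evx1 over the 12 libraries were Bmp4 (r = 0.912), Cox17 (0.903) and Fgfr3 (0.902). For Mesp1 they were Pcmt1 (0.919), Fgf8 (0.899) and Cox17 (0.888). Bmp4 and Fgf8 encode signals that act in and around the streak, Fgfr3 a receptor for FGFs, and Cox17 a copper chaperone of mitochondria. For Otx2 the nearest were Clstn3 (0.94), Ell2 (0.881) and Tulp1 (0.847), and for Pou3f1 Rmi2 (0.925), Slc2a4 (0.917) and Pheta1 (0.916). For Gsc they were Tle5 (0.872), Ube2t (0.87) and Mrps26 (0.867), for Eomes Magel2 (0.792), Aspg (0.766) and Zbtb8a (0.756), and for Mixl1 Cactin (0.821), Palm3 (0.785) and Ikzf4 (0.775). Of these 21 genes, 8 were also chosen with Spearman's rho and 2 with the deviations from the group means, so most of the names depend on the measure. For Evx1 and Mesp1, Fgf8, Fgfr3 and Cox17 were chosen by Pearson's r alone. Bmp4 was not chosen with the deviations, and Pcmt1 was chosen by every measure.

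Mesp1 lies at chr7:79792241-79793788 on the minus strand (ENSMUSG00000030544). Its promoter window was searched because T-box and TCF/LEF factors are known to carry Wnt input to streak genes. RefSeq promoter windows of 300 bases (GRCm38.p6, 250 before and 50 after the start) were at hand for 5 of the 7 genes, all but Mixl1 and Pou3f1. They were searched on both strands for the T-box core TCACACC, held by 3.98% of all 32851 windows, the TCF/LEF motif CTTTGAT (3.73%), the bicoid-type homeodomain motif TAATCC (7.06%), the FOXH1 motif AATCCACA (0.855%) and the paired-type homeodomain dimer TAAT and ATTA with 3 bases between them (0.487%). The bicoid-type and FOXH1 motifs overlap by the letters AATCC. Mesp1 was the only window of the 5 genes with a T-box or TCF/LEF match. The TCF/LEF match started 31 bases before the start and the T-box match 5 bases after it, both on the strand of the gene, and they are shown with 10 bases on each side and the match in capitals (chr7:79793605-79793631 and chr7:79793569-79793595). In GENCODE M21 both stretches lie within the Mesp1 gene, an exon and UTR of which reach into the 250 bases before the RefSeq start.

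Mesp1 TCF/LEF match: ctcgagccggCTTTGATatgctgatga

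Mesp1 T-box match: ggggcccgctTCACACCtagggctcag

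Eomes, at chr9:118478212-118486132 on the plus strand (ENSMUSG00000032446), held the paired-type dimer 111 bases before its start, in a stretch with no annotated exon. It is shown because Mixl1, Gsc and Otx2 belong to the paired class of homeobox genes, whose proteins can bind such dimers (chr9:118477939-118478188, plus strand, match in capitals).

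Eomes upstream: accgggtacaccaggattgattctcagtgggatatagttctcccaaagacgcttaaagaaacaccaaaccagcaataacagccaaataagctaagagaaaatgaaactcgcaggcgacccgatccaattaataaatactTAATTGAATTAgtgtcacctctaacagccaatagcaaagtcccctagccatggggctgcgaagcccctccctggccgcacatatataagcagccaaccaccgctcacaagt

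Of the 4 RefSeq windows of Otx2, 1 held the bicoid-type motif, 211 bases before its start, and the windows of Evx1 and Gsc held none of the 5 motifs. The matches are descriptions of letters in these windows.

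Eomes, the best detected of the streak genes here, had no common direction over embedding time in the 2 gels. At 1.0 mM it had 11.8, 11.8 and 6.45 CPM after embedding at 72 h and 9.74, 8.75 and 5.96 CPM after embedding at 96 h. At 1.5 mM the values were 6.26, 10.2 and 6.61 CPM after 72 h and 12.8, 8.75 and 5.72 CPM after 96 h. The groups overlapped in both gels, with log2 ratios of 0.31 (SE 0.24, edgeR adjusted p = 0.504) and -0.25 (SE 0.28, edgeR adjusted p = 0.571). Across both gels the estimate was 0.03, with a 95% interval from -0.43 to 0.49.

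Gsc (chr12:104471209-104473330, minus strand, ENSMUSG00000021095) and Mixl1 (chr1:180693043-180697034, ENSMUSG00000026497) had values on the other side. Gsc had 41, 32 and 22 counts after embedding at 72 h in the 1.0 mM gel and 56, 63 and 24 counts after 96 h. At 1.5 mM it had 31, 29 and 19 counts after 72 h and 42, 39 and 41 after 96 h. In CPM the latter were between 1.57 and 1.60, with an SD of 0.0160 on a mean of 1.58, and none of the libraries embedded at 72 h reached them. This was the sole comparison of embedding time in which the libraries of any of the 7 genes did not overlap, and 39.9% of all genes did not overlap there. The log2 ratio of Gsc was -0.48 at 1.0 mM (SE 0.39, edgeR adjusted p = 0.507) and -0.47 at 1.5 mM (SE 0.28, edgeR adjusted p = 0.259).

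Mixl1 had between 4 and 26 counts in a library, so counting error was large: its lowest library, replicate 2 of 72 h in 1.5 mM, had 4 counts with an exact Poisson interval of 1.09 to 10.2. Its counts after embedding at 72 h were 15, 11 and 9 at 1.0 mM and 11, 4 and 15 at 1.5 mM. After embedding at 96 h they were 24, 17 and 12 at 1.0 mM and 26, 12 and 11 at 1.5 mM. The groups overlapped in both gels, with log2 ratios of -0.47 (SE 0.39, edgeR adjusted p = 0.520) and -0.56 (SE 0.50, edgeR adjusted p = 0.460). Across both gels the estimates for Gsc and Mixl1 were -0.47 (95% interval -0.998 to 0.05) and -0.52 (95% interval -1.19 to 0.16).

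Pou3f1 (chr4:124656807-124660655, ENSMUSG00000090125) had lower means after embedding at 72 h in both gels. At 1.0 mM it had 3.05, 3.80 and 3.95 CPM after 72 h and 5.17, 4.62 and 3.79 CPM after 96 h. At 1.5 mM it had 3.47, 1.96 and 2.72 CPM after 72 h and 4.99, 3.41 and 4.13 CPM after 96 h. In each gel the lowest library embedded at 96 h lay just under the highest embedded at 72 h. The log2 ratio was -0.32 at 1.0 mM (SE 0.20, edgeR adjusted p = 0.371) and -0.63 at 1.5 mM (SE 0.24, edgeR adjusted p = 0.0980). Across both gels it was -0.47 (SE 0.16, 95% interval -0.80 to -0.14), with an edgeR adjusted p of 0.0320, below the threshold for p but inside the fold threshold, so it was not called. With the p alone, 2 of the 7 genes (Evx1 and Pou3f1) passed, where 31.1% of all genes did. The exact permutation test over libraries within gels gave p = 0.03 for Pou3f1, two-sided.

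Otx2 (chr14:48657677-48673819, minus strand, ENSMUSG00000021848) had the smallest standard errors of the 7 genes for embedding time. At 1.5 mM it was at 36.0, 39.0 and 30.2 CPM after embedding at 72 h and at 32.2, 25.6 and 19.0 CPM after 96 h. At 1.0 mM it was at 28.0, 30.5 and 25.1 CPM after 72 h and at 29.6, 22.8 and 22.8 CPM after 96 h. The groups overlapped in each gel. The log2 ratio was 0.45 (SE 0.17, edgeR adjusted p = 0.0932) at 1.5 mM, 0.16 (SE 0.13, edgeR adjusted p = 0.511) at 1.0 mM, and 0.30 (SE 0.12, edgeR adjusted p = 0.0646) across both. The exact permutation test over libraries within gels gave p = 0.05, two-sided. Otx2 and Pou3f1, the epiblast members, thus had estimates of opposite sign in each gel.

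**Figure D4:**
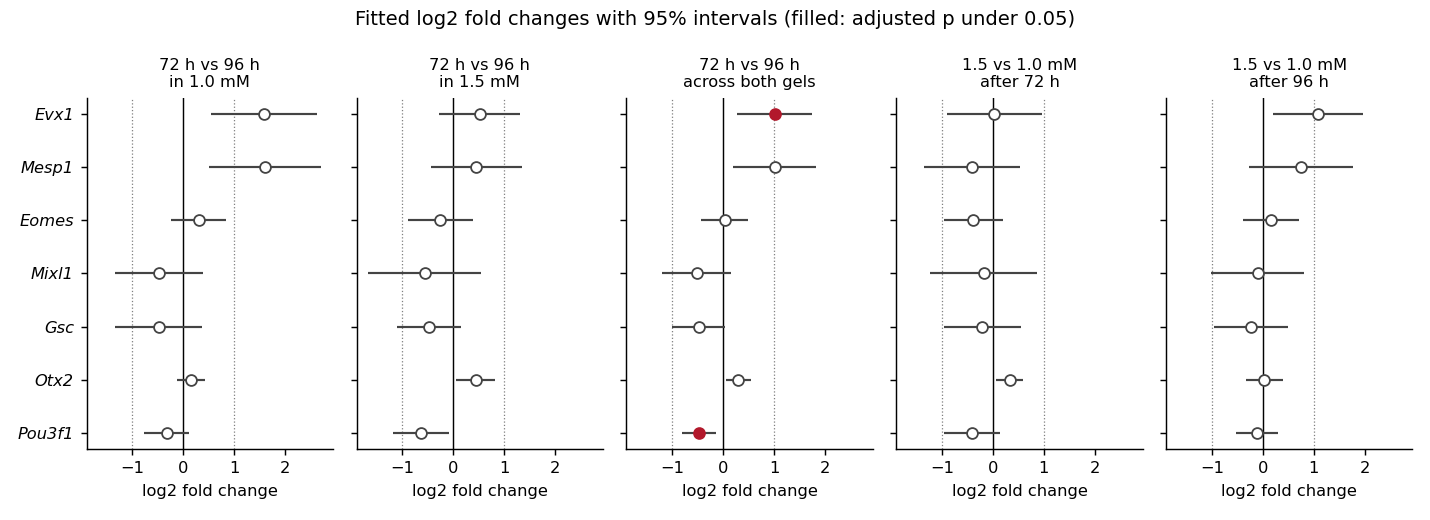
Fitted log2 ratios of the 7 genes with 95% intervals for embedding time (72 h over 96 h) in each gel and across both, and for gel concentration (1.5 mM over 1.0 mM) after each embedding time, with filled points for an adjusted p below 0.05 and dotted lines at the fold threshold. Filled are Evx1 (1.02) and Pou3f1 (-0.47) across both gels.

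In the main fits and with DESeq2, gel concentration moved none of the 7 genes past the threshold. After embedding at 72 h edgeR called 0 of the 7 and 0% of all genes, and 1 (Otx2) had an unadjusted p below 0.05, as 6.9% of all genes did. DESeq2 called 0 of the 7 and 0.0293% of all genes. Otx2 was at 35.1 ± 4.43 CPM at 1.5 mM and 27.8 ± 2.71 CPM at 1.0 mM (SD, n = 3), a log2 ratio of 0.33 (SE 0.12, edgeR adjusted p = 0.698). The log2 ratios of the other 6 genes ran from -0.41 (Pou3f1) to 0.03 (Evx1). After embedding at 96 h edgeR called 0 of the 7 and 0% of all genes, and 1 (Evx1) had an unadjusted p below 0.05, as 9.95% of all genes did, while DESeq2 called 0 of the 7 and 0.0717% of all genes. Evx1 was at 1.98 ± 0.881 CPM at 1.5 mM and 0.939 ± 0.433 CPM at 1.0 mM, a log2 ratio of 1.08 (SE 0.40, 95% interval 0.20 to 1.96, edgeR adjusted p = 0.429). Mesp1 followed at 0.74 (SE 0.47, edgeR adjusted p = 0.647), and the other 5 genes ran from -0.22 (Gsc) to 0.16 (Eomes). Across both embedding times edgeR called 0 of the 7 and 0.0061% of all genes, 0 of the 7 had an unadjusted p below 0.05, as 12.7% of all genes did, and DESeq2 called 0 of the 7 and 0.0601% of all genes. The smallest adjusted p was 0.527, for Pou3f1.

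The change with embedding time was not shown to differ between the gels. For Evx1 the log2 ratio at 1.5 mM minus that at 1.0 mM was -1.05 (SE 0.66, 95% interval -2.46 to 0.36) and for Mesp1 it was -1.15 (SE 0.73, 95% interval -2.70 to 0.41). Both had an edgeR adjusted p of 0.953 for the interaction. In this test edgeR called 0 of the 7 and 0% of all genes, 0 of the 7 had an unadjusted p below 0.05, as 4.32% of all genes did, and DESeq2 also called 0 of both.

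A list of 11 relatives of the 7 genes, which need not hold every paralogue, was read beside them. T (Brachyury), the T-box gene of streak and tailbud that is related to Eomes, was at 251 ± 34.3 CPM after embedding at 72 h and 112 ± 23.2 CPM after 96 h in 1.0 mM, with a log2 ratio of 1.17 (SE 0.14, edgeR adjusted p = 6.04e-04). At 1.5 mM the log2 ratio of T was 1.42 (SE 0.10, edgeR adjusted p = 2.60e-04). Otx1, the paralogue of Otx2, had 0.96 (edgeR adjusted p = 0.0514) and 0.84 (edgeR adjusted p = 0.0384), under the fold threshold. Pou3f2, a neural relative of Pou3f1, had at most 11 counts and was called only across both gels, at 1.68 (SE 0.36, edgeR adjusted p = 0.00260, not tested at 1.5 mM alone), opposite in sign to Pou3f1. Mesp2, next to Mesp1 in the genome and active in somite formation, had -0.54 and 0.07 in the 2 gels, and Tbx6, Tbr1, Pou3f3 and Pou3f4 were not called. Evx2, Gsc2 and Crx had at most 8 counts and were not tested. Of the 11 listed relatives, 8 were tested at 1.0 mM and 1 (T) was called, as 4.3% of all genes were.

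Other genes of the streak and nascent mesoderm moved in both directions. The list of these genes and the other lists were chosen with earlier results of these data known, so their counts are descriptions. For this and the other lists, 2.61% of all genes tested were called as higher and 1.69% as lower after 72 h at 1.0 mM, and 1.61% and 1.57% at 1.5 mM. Of 23 listed, 21 were tested at 1.0 mM, of which 2 were called as higher after embedding at 72 h and 3 as lower, with a list median of 0.15 against -0.01 over all genes. At 1.5 mM 4 of 20 were called as higher and 2 as lower, with a median of 0.14. Lefty2, a Nodal target and antagonist, fell on the log2 scale by 3.91 (SE 0.41, edgeR adjusted p = 2.67e-04) at 1.0 mM and by 3.06 (SE 0.46, edgeR adjusted p = 0.00412) at 1.5 mM. Nodal, the ligand upstream of Eomes, Mixl1 and Gsc, fell by 1.99 (SE 0.33, edgeR adjusted p = 0.00388) and by 1.90 (SE 0.35, edgeR adjusted p = 0.00805). Lhx1, which acts in the anterior streak and intermediate mesoderm, rose by 1.62 (SE 0.15, edgeR adjusted p = 1.34e-04) and 1.30 (SE 0.14, edgeR adjusted p = 0.00149). Cdx1, a Wnt target of the posterior body, fell by 2.01 at 1.0 mM (SE 0.41, edgeR adjusted p = 0.0105), had at most 27 counts and was not tested at 1.5 mM.

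Among other genes of the epiblast, those called were all lower after embedding at 72 h. Of 19 tested, 0 were called as higher and 5 as lower after embedding at 72 h in either gel, with medians of -0.40 at 1.0 mM and -0.23 at 1.5 mM. Utf1, a chromatin factor of pluripotent cells, fell by 2.27 and 2.35 on the log2 scale in the 2 gels, Foxd3, also a neural crest factor, by 1.84 and 1.99, Nanog, a pluripotency factor, by 1.96 and 1.50, and L1td1 by 1.62 and 1.31, with edgeR adjusted p-values from 8.66e-05 to 0.0150. Pou3f1 had the same sign as these genes and a smaller size, and Otx2 the other sign.

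Markers of the tissues in which the 7 genes are used again were read as well. Of the anterior neural genes, 4 of 7 tested at 1.0 mM and 3 of 8 at 1.5 mM were called as higher after 72 h, and 0 as lower. Six3 and Hesx1, factors of the forebrain, rose by 2.00 and 2.58 and by 2.13 and 2.19, and Lmx1a, a factor of the roof plate and midbrain, by 2.02 and 2.16, while Dmbx1 was called at 1.0 mM alone, at 1.07. The summed level of the 12 genes was 38.2 to 43.0 CPM after 72 h and 15.4 to 23.1 CPM after 96 h in 1.0 mM, and 32.7 to 40.7 against 15.3 to 19.0 CPM at 1.5 mM, and Fezf1 and Wnt1 were at 0 in some libraries. These levels were higher after 72 h, as the means of Otx2 were, and their part in its values was not tested. Of the cardiac and anterior mesoderm genes, 12 of 14 at 1.0 mM and 4 of 14 at 1.5 mM were called as higher after 72 h. The cardiac factors Tbx20 and Gata4 rose by 2.82 and 1.40 and by 2.57 and 1.36, and the atrial myosin light chain Myl7 (2.92) and Tbx5 (2.75) were called at 1.0 mM. Their summed level was 875 to 1383 CPM after 72 h and 217 to 404 CPM after 96 h in 1.0 mM, and 724 to 1206 against 393 to 616 CPM at 1.5 mM, and none was at 0 in a library. These levels were higher after 72 h, as the means of Mesp1 were, and their part in its values was not tested.

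Of the 8 definitive endoderm genes, which lie downstream of Eomes, Mixl1 and Gsc in the embryo, 1 was called in each gel, Shh, the Hedgehog ligand of notochord and gut, at 1.37 and 1.46. Of the trophoblast genes, where Eomes is also expressed, Tfap2c fell by 1.75 and 1.50 and Krt7 by 1.01 and 1.15, and Plac1 rose by 1.97 at 1.0 mM, among 6 tested. Elf5, a defining gene of that lineage, had at most 3 counts in a library. Of the 9 gastruloid markers, T and Pax6 (1.24) were called as higher at 1.0 mM and T at 1.5 mM, and Meox1 fell by 2.03 and 1.42. In the fits without a replicate block, no gene of any of these lists was called between the gels or for the interaction. With the block, 6 of the 14 cardiac genes were called as higher at 1.5 mM after embedding at 96 h, and 0 as lower. Of all genes, 0.258% were called as higher there. The median log2 ratio of the list was 0.87, against -0.0047 over all genes, in the fit without the block. Its interaction median was -1.17, against 0.0074. Every other list had at most 1 call with the block in these comparisons.

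**Figure D5:**
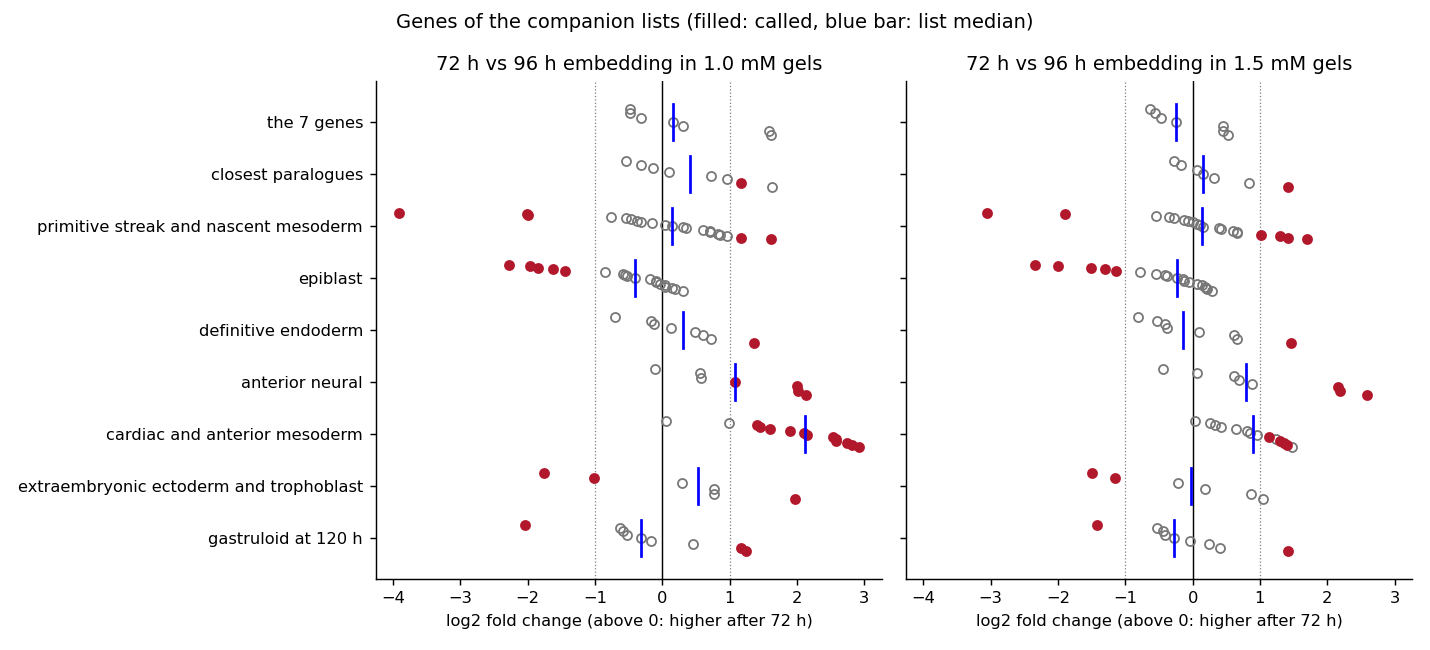
Log2 ratios for embedding time (72 h over 96 h) of the 7 genes and of the genes tested in each companion list, at 1.0 mM (left) and 1.5 mM (right), with filled points for called genes and a blue bar for the list median. At 1.0 mM the cardiac list has a median of 2.13 with 12 filled points, and the 7 genes a median of 0.16 with none.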

How the data were processed

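Per the labels and the study's methods, the authors prepared stranded poly-A libraries from 550 ng of RNA, sequenced paired ends of 75 bases, trimmed with cutadapt 4.4 and aligned with STAR 2.7.10b to mm10 with a customized Ensembl annotation. They deposited raw counts per gene without normalization, and FPKM values computed with Cufflinks 2.2.1.3. Another deposited table holds the authors' own pairwise DESeq2 fold changes and adjusted p-values, which were not used. The methods name STAR as the source of the counts and the table is named for another counter, and its strand setting is not given in the sources used here.

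Counts were analysed in R 4.3.3 with edgeR 4.0.16 (TMM, filterByExpr by group, glmQLFit and glmQLFTest), and DESeq2 1.42.0 as an alternative. The filter used a minimum count of 10, which did not have to be met in every library, and a minimum total of 15. The 36 mitochondrial genes were left out. CPM used TMM-scaled totals, and log2 CPM a prior count of 2. The script was tested on simulated data with 200 changed genes. Pairwise comparisons used 6 libraries, and those across gels or times and the interaction all 12. Totals of 23011791 to 27609422 counts set a counting error that matters mainly for Mixl1, and intervals on counts cover counting error only.

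The 7 genes, the companion lists and the tests were chosen with earlier results of these data known. All 7 are named, with the listed relatives and all overlapping genes. Up to 4 called genes with the largest fold change per companion list, and the 3 genes most like each, are named too. Pairing by replicate number was judged by the correlation of deviations from group means, with the threshold of 0.1 for every pair. Promoter sequences were taken from RefSeq (GRCm38.p6) and exons from GENCODE M21. Alternatives were DESeq2, RLE factors, no filter, no fold threshold, all 12 libraries in a single fit, the replicate number as a block, and each library left out in turn.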

Additional observations from a re-analysis of the deposited data

How the results depend on the processing

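Of 644 values of single genes under the alternatives, 583 kept their sign and their side of the threshold, 14 passed it anew, 7 lost it and 40 changed sign. Of those 40, 39 came from leaving out a library, and all 40 belong to estimates that were not called. With a library left out, the estimate of Eomes for embedding time ranged from -0.50 to 0.080 at 1.5 mM and from -0.082 to 0.21 across both gels. For gel concentration after embedding at 72 h the ranges were -0.54 to 0.18 for Mixl1, -0.41 to 0.037 for Gsc, -0.81 to 0.031 for Mesp1 and -0.34 to 0.57 for Evx1. After embedding at 96 h they were -0.16 to 0.40 for Eomes, -0.56 to 0.17 for Mixl1, -0.57 to 0.067 for Gsc, -0.16 to 0.20 for Otx2 and -0.25 to 0.011 for Pou3f1. For gel concentration across both times they were -0.37 to 0.0093 for Mixl1 and -0.20 to 0.39 for Mesp1, and for the interaction -0.43 to 0.40 for Mixl1 and -0.28 to 0.36 for Gsc.

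In 1.0 mM gels the number of the 7 genes called for embedding time was 2 with DESeq2 (3.62% of all genes). It was also 2 with no filter on low counts (3.15%). With all 12 libraries in a single fit it was 1 (Evx1, edgeR adjusted p = 0.0496, against 4.24%), and it ranged from 0 to 2 when a library was left out. After embedding at 96 h, 1 gene (Evx1) was called between gels with no filter, where 0.222% of all genes were called. Across both gels the number called for embedding time was 2 with no filter (3.25% of all genes). It was 2 with no fold threshold (31.1%), and 0 to 2 when a library was left out. In the other comparisons it stayed at 0. The order by level kept all 7 places with medians and 3 of 7 with CPM, which is not per length. Of the 21 genes most like the members, 8 were shared with Spearman's rho and 2 with deviations from the group means.

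Replicate numbers were shared between groups, and 12 of 12 libraries correlated best with their own number. The deviations of the 18 pairs of libraries with the same number had correlations from 0.0365 to 0.313 (median 0.156). Pairs with different numbers had a median of -0.0765. As the deviations of a group sum to 0, this value largely follows from that of the same-number pairs and is no separate contrast. As only 13 of the 18 were over 0.1, the numbers were not taken to pair the samples in the main fits. With the replicate block, 2 genes were called in 1.0 mM gels, Mesp1 (edgeR adjusted p = 0.00176) and Evx1 (0.00267), where 4.8% of all genes were called, and 2 across both gels, Mesp1 (1.08, edgeR adjusted p = 0.00397) and Evx1 (1.01, edgeR adjusted p = 0.00237), where 4.87% were, and the count in every other comparison stayed at 0. The Gsc interaction reversed to -0.053 under the block.

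The number of all genes called moved over 1.5 times with no fold threshold for embedding time (678 to 1457 in 1.0 mM, 498 to 3033 in 1.5 mM, 763 to 5092 across both), and without replicate 3 of 96 h (429 in 1.0 mM, 298 in 1.5 mM gels). Between gels it rose from 0 to 4 after 72 h and to 10 after 96 h with DESeq2, and to 56 and 65 with no filter. Between gels it was 16 and 51 with the replicate block. Across both times it was 1, and 9 with DESeq2, 40 with no filter, 7 with the block and 5 with no fold threshold, and for the interaction 0, and 112 with no filter and 4 with the block. With a library left out, the count after 96 h ran from 0 to 12 (12 without replicate 3 and 2 without replicate 1 of 96 h in 1.5 mM) and that across both times from 0 to 8. The latter was 8 without replicate 1 of 72 h in 1.5 mM, 2 without replicate 3 of either 1.0 mM group, and 0 without replicate 1 of 72 h in 1.0 mM, replicates 2 or 3 of 72 h in 1.5 mM, or replicates 2 or 3 of 96 h in 1.5 mM. The cause was not tested. Depth limits Mixl1 most, at 4 to 26 counts.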
